A study of Homo sapiens with 6 samples.

Results

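The genes described here are 53 sequence-specific transcription factor genes among the 1099 genes of a table deposited for a comparison of extract-treated and vehicle-treated cells. They were taken from the table by annotation: a row had to carry a Gene Ontology term for DNA-binding transcription factor activity, in general (24 members) or for RNA polymerase II (46 members), with 17 carrying both. Of 72 rows with either term, 6 were left out because they also carry a term for RNA binding or for the extracellular space (CEBPZ, CNBP, HBP1, NOLC1, PA2G4 and TARDBP). A further 13 were left out by name (KLF2, KLF4, MYC, NFKB2, CEBPB, STAT2, IRF9, NFE2L2, ID1, ID2, ID3, SMAD7 and POU2F3). The members were grouped by the structural family of the factor.

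Poly(A) RNA was sequenced from cells labelled A549, wild type, grown in serum-containing medium and kept for 24 h with F/B extract (3 libraries) or with DMSO as the vehicle (3 libraries). By the title of the series, F/B stands beside Flos Sophorae Immaturus and broccoli seed as the plant sources, and the study asked about tumour growth, arrest at G2/M and the epithelial to mesenchymal transition. The dose is not stated in the labels, and no label says whether the replicates were separate cultures, and p-values therefore reflect the scatter among these 6 libraries alone, which may be technical. A549 is an established line of lung adenocarcinoma, but the library names begin with AGS, the name of a gastric adenocarcinoma line. Among 7 genes listed as checks of a lung origin only MTAP was in the table, at 48.9 to 60.5 TPM (a share of the library's transcripts that allows for gene length), although A549 is known to have lost this gene. Absence of a marker says nothing about its level, since the table holds only genes selected on the comparison of extract and vehicle. Of 14 gastrointestinal markers 4 were in the table. The villin gene VIL1 was at 142 to 214 TPM and the cadherin gene CDH17 at 33.6 to 48.0 TPM. TFF1 was at 33.3 to 81.5 TPM and REG4 at 5.83 to 11.6 TPM. The cell line is therefore called here by its label only.

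Transcription factors read short DNA motifs through a folded domain and then raise or lower transcription of nearby genes through partner proteins. The largest human family carries C2H2 zinc fingers, small zinc-binding loops strung in arrays, and includes the ZNF genes and the Krüppel-like factors (KLF). Other families use a basic leucine zipper (bZIP), a basic helix-loop-helix (bHLH), a homeodomain, a forkhead, an ETS domain or the zinc-binding domain of nuclear receptors. Their mRNAs are often short-lived, and in epithelial tumour cells KLF, ETS and AP-1 factors are known to set much of the lineage and growth programme. An mRNA level says nothing about protein amount, localisation or DNA binding. In RNA from whole cultures, a change in the mix of cells and a change per cell cannot be told apart.

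What could be seen was limited by how the table was made. Its 1099 genes are the 9.74% with the smallest p-values of 11289 genes tested by the authors, with a largest deposited p-value of 0.00535, so every member had already been selected on this comparison. Other factor genes were not analysed here. The members nearest to the table's edge were SKI, SRF, ARID1B, SIX5 and CENPT, with deposited p-values from 0.00454 to 0.00490 in the authors' deposited table. Counts of members are therefore descriptions, and are set beside the same counts over all listed genes. Values below are normalised counts, the deposited estimated counts rounded and divided by size factors, and all fold changes are extract over vehicle.

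With extract, the listed factor genes split nearly evenly between higher and lower, while the listed genes as a whole leaned to lower. Of the 53 members 27 stood higher (50.9%) and 26 lower, against 387 higher (35.2%) and 712 lower among the 1099 listed genes. The highest were NR3C2, the mineralocorticoid receptor, TFDP2, a dimerisation partner of E2F factors, and the zinc finger gene ZNF618. The lowest were the homeobox gene PBX4, ZNF593, and the epithelial ETS factor EHF. By edgeR's quasi-likelihood test 20 members (37.7%) were called higher at an adjusted p under 0.05, where 28.9% of listed genes were, and 22 (41.5%) were called lower, where 52.9% of listed genes were. The other 11 did not pass. In the 6 libraries 26 members were higher in every extract library than in any vehicle library, against 34.6% of listed genes, and 26 were lower throughout, against 63.9% of listed genes. Only the groups of SKIL overlapped. That most genes were called or had groups apart follows from how the table was chosen, so nothing is read from it. That choice did not fix the division between higher and lower, whose difference from all listed genes was not tested.

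Changes were small. The median log2 fold change of the members was 0.17, against -0.22 for all listed genes. No member lay between -0.16 and 0.17, so the members' median shows only that 27 of the 53 stood higher. The median size regardless of sign was 0.28, against 0.29. Log2 fold changes ran from -0.85 to 0.54, and 1 member, PBX4, changed by more than 1.5-fold. The median coefficient of variation between replicates was 4.26% in vehicle and 5.24% in extract libraries for the members, close to 4.05% and 5.17% for all listed genes.

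**Figure D1:**
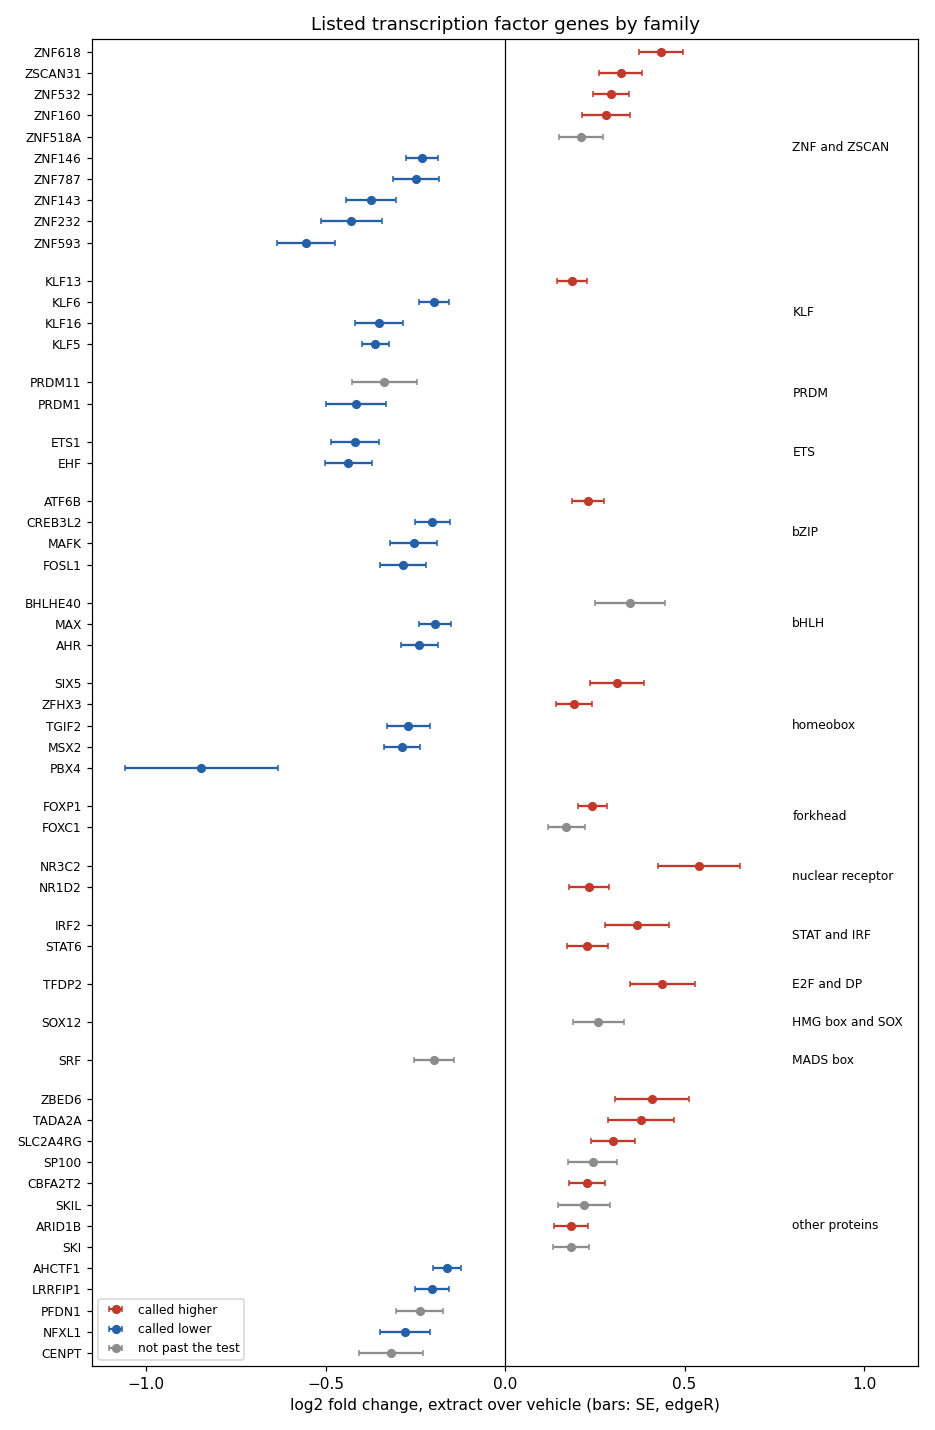
Log2 fold change of each of 52 of the 53 members (horizontal axis, extract over vehicle, bars are SE from edgeR), grouped by family, with red for called higher, blue for called lower and grey for members not past the test. IRF2 and STAT6 lie to the right of 0 and both ETS members to the left, while the 10 ZNF and ZSCAN genes lie 5 on each side.

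How many members were called lower depended on how the libraries were scaled, while their direction did so for 1 member only. The size factors used here were those that the authors' fold changes imply. With TMM over the listed genes, with DESeq2 size factors over them and with the scale implied by the TPM values, the median log2 fold change of all listed genes rose by 0.16, 0.17 and 0.08, and all members moved up with it. Members called lower then numbered 2, 2 and 5, and members called higher 27, 27 and 26, so that 6.90%, 6.90% and 16.1% of member calls were lower, in place of 52.4%. The same held for the table as a whole, where 18.4%, 18.2% and 36.6% of calls over all listed genes were lower, in place of 64.6%. Only KLF5 and ZNF593 were called lower on all 4 scales, and all 20 members called higher were called on all 4. Each of the other scales shifts values upward, so lower calls tend to be lost and higher calls kept. This contrast therefore does not show increases to be firmer than decreases. Scaling over the listed genes also centres on genes selected for change, most of them lower. No member changed sign with TMM or on the TPM scale. With DESeq2 size factors AHCTF1 stood at 0.01. Decreases given below, other than those of KLF5 and ZNF593, hold on the authors' scale but not on all others.

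Single libraries mattered as well. Leaving out vehicle replicate 2 left 2 members called higher and 4 lower, beside 50 and 128 of the 1099 listed genes. The counts were 5 and 4 when vehicle replicate 3 was dropped, beside 80 and 224 listed genes. They were 4 and 5 when extract replicate 2 was dropped, beside 73 and 186. Lower calls numbered 14 with extract replicate 3 dropped, beside 440 listed genes. With all 6 libraries 318 listed genes were called higher and 581 lower, so the loss ran through the whole table. Members called whichever library was left out included ZNF618 among the higher ones, and KLF5, ETS1, EHF and ZNF593 among the lower ones. Of these 5, all but ETS1 and EHF were called in each of the 13 other settings.

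**Figure D2:**
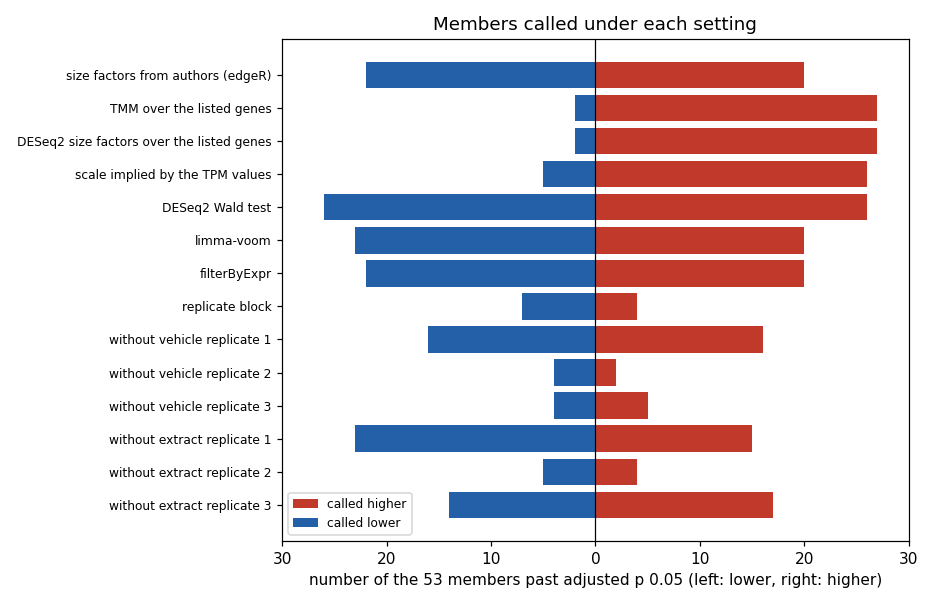
Number of the 53 members past an adjusted p of 0.05 (bars to the left are lower with extract, bars to the right higher) under the size factors taken from the authors' fold changes with edgeR (top) and each of 13 other settings. Lower calls drop from 22 to 2 with TMM over the listed genes, and both directions shrink when vehicle replicate 2 is left out.

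Among the C2H2 zinc finger families, 16 genes by symbol, 5 rose, 9 fell and 2 did not pass. Of all listed genes 28.9% were called higher and 52.9% lower. Counts for this and each later family are to be read beside those shares. The 10 ZNF and ZSCAN genes accounted for 4 of the higher and 5 of the lower calls. Their log2 fold changes ran from -0.56 to 0.43 with a median of -0.01, against -0.22 over all listed genes. That median falls in the empty range between 5 higher and 5 lower genes, so it describes no gene. A single one, ZNF160, has an annotated KRAB box, the domain by which many ZNF proteins recruit a corepressor, and ZSCAN31 and ZNF232 have a SCAN dimerisation domain.

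ZNF618 (ENSG00000157657, GRCh38 chromosome 9, 113876282 to 114056591) stood at 618, 637 and 697 normalised counts in vehicle replicates 1 to 3 and at 883, 881 and 874 in extract replicates 1 to 3. All extract libraries lay above all vehicle libraries and close to each other. Its mean went from 651 ± 41.4 to 879 ± 4.81 (SD, n = 3 in each group). Its log2 fold change was 0.43 (edgeR adjusted p = 0.00472, SE 0.06). ZSCAN31 was at 2639, 2271 and 2384 in vehicle and at 2955, 2964 and 3187 in extract libraries, a log2 fold change of 0.32 (edgeR adjusted p = 0.0137, SE 0.06). With a mean of 227 TPM it was among the most abundant members. ZNF532 rose by 0.29 on the log2 scale and the KRAB gene ZNF160 by 0.28. ZNF518A was at 0.21 and did not pass (edgeR adjusted p = 0.0720).

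ZNF593, a single-finger protein whose yeast counterpart acts in export of the large ribosomal subunit, showed the strongest decrease among the zinc finger genes. Its normalised counts were 478, 509.5 and 469 in vehicle and 358, 323 and 311 in extract libraries. The groups were apart, and the log2 fold change was -0.56 (edgeR adjusted p = 0.00521, SE 0.08), or 1.47-fold lower. All annotated exon bases of this gene (chromosome 1, 26169871 to 26170873) are also exonic in a gene on the opposite strand, AL391650.1, so without stated strand use its reads cannot be assigned to a strand. ZNF143, an activator of small nuclear RNA genes and of many mRNA promoters, was at 621, 615 and 691 in vehicle and 488, 512 and 486 in extract libraries. It fell by 0.37 on the log2 scale (edgeR adjusted p = 0.0137, SE 0.07). ZNF232 was at 335, 354 and 365 in vehicle and 259, 278 and 247 in extract libraries, and fell by 0.43. The abundant ZNF146, a protein made almost only of zinc fingers, fell by 0.23, and ZNF787 by 0.25.

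Of the 4 KLF genes 3 fell and 1 rose. KLF5 (ENSG00000102554, chromosome 13, 73054976 to 73077542) promotes proliferation of gastrointestinal epithelium. It was the member with the highest level, at a mean of 292 TPM in vehicle and 241 TPM in extract libraries. Its normalised counts were tightly grouped, at 10849, 10909.8 and 10973 in vehicle and at 8512, 8631 and 8332 in extract libraries. This is a log2 fold change of -0.36 (edgeR adjusted p = 0.00141, SE 0.04), a decrease past the test in every other setting tried. KLF16, a repressor at GC-rich promoters, was at 759.95, 785 and 770.2 in vehicle and 649, 605 and 560.4 in extract libraries, a log2 fold change of -0.35 (edgeR adjusted p = 0.0140, SE 0.07). Its mean deposited TPM went the other way, to 23.7 from a vehicle mean of 22.99, so its direction depends on which deposited unit is read. KLF6, a growth-restraining factor, fell by 0.20 on the log2 scale, while KLF13 rose by 0.19. KLF2 and KLF4, left out by the rule, were at 0.58 and -0.46.

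PRDM1 (BLIMP1), a repressor that drives terminal differentiation of B cells, was at 506, 559 and 573 normalised counts in vehicle and 387, 449 and 392.5 in extract libraries. The groups did not overlap, and the log2 fold change was -0.42 (edgeR adjusted p = 0.0180, SE 0.08). On the TPM scale, with TMM and with DESeq2 size factors this call was lost. Its mean deposited TPM went from 11.2 in vehicle to 10.7 in extract libraries, a smaller step than in the counts. PRDM11, a relative with no C2H2 domain in its annotation, was at -0.34 and did not pass (edgeR adjusted p = 0.0511).

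**Figure D3:**
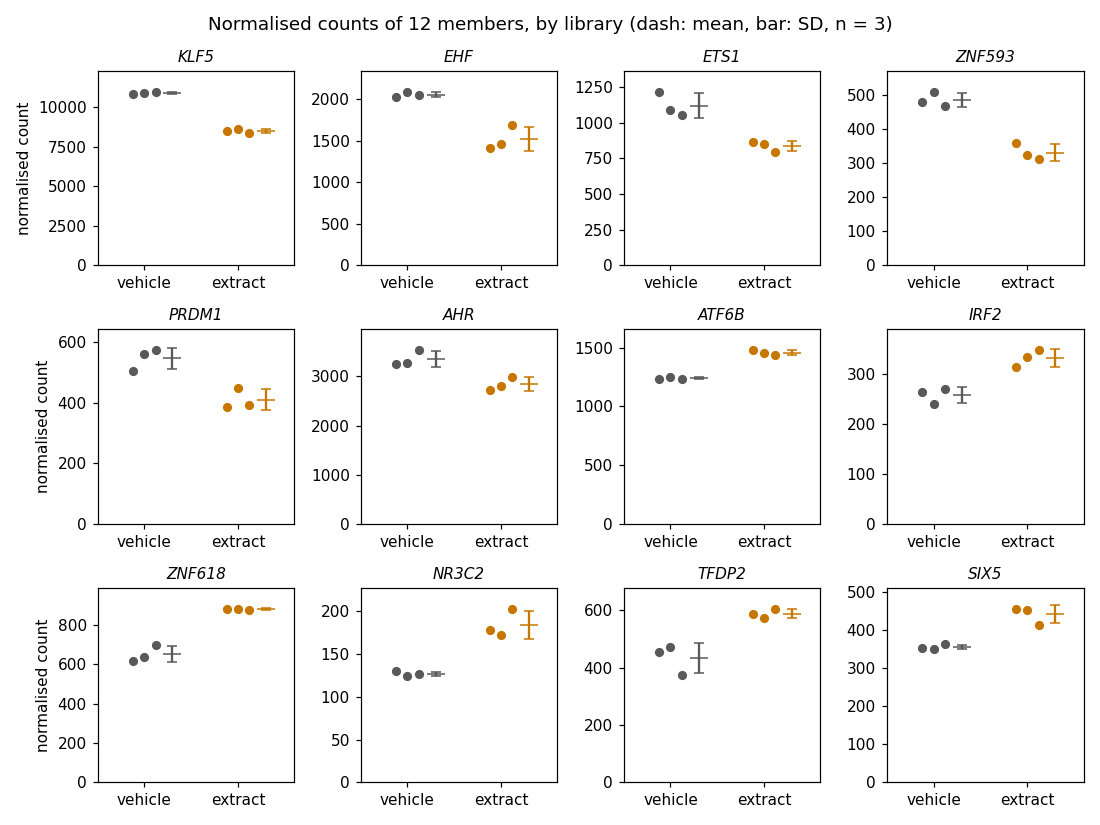
Normalised counts (vertical axes, from 0) of 12 members in each library, with 3 vehicle libraries in grey and 3 extract libraries in orange, where the dash and bar beside the points give the mean and SD. The first 6 genes (KLF5 to AHR) are lower in every extract library and the other 6 (ATF6B to SIX5) higher.

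Both ETS genes fell. EHF (ENSG00000135373, chromosome 11, 34621093 to 34661057), an epithelium-specific factor, was at 2029.7, 2092 and 2048 normalised counts in vehicle and 1415, 1456 and 1688 in extract libraries. Extract replicate 3 lay nearest to the vehicle group without reaching it. The log2 fold change was -0.44 (edgeR adjusted p = 0.00549, SE 0.07). ETS1 (chromosome 11, 128458761 to 128587558), a founding member of the family and an effector of growth factor signalling, was at 1218, 1086 and 1055 in vehicle and at 862, 854 and 794 in extract libraries. Its log2 fold change was -0.42 (edgeR adjusted p = 0.00734, SE 0.07). On the TPM scale both calls were kept, at -0.35 for EHF and -0.34 for ETS1. Both were lost with TMM (-0.28 and -0.27) and with the DESeq2 factors (-0.26 and -0.25).

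Of the 4 bZIP genes 3 fell and 1 rose. FOSL1 (FRA1), a subunit of the AP-1 factor, was at 1036, 1019.9 and 1117 in vehicle and 906, 894 and 803 in extract libraries, a log2 fold change of -0.28 (edgeR adjusted p = 0.0260, SE 0.06). MAFK, a small MAF protein that pairs with NRF2, fell by 0.25, and CREB3L2, a factor anchored in the endoplasmic reticulum membrane, by 0.20. ATF6B, also anchored there and released under protein folding stress, was at 1234, 1251 and 1236 in vehicle and 1478, 1452 and 1438 in extract libraries. It rose by 0.23 on the log2 scale (edgeR adjusted p = 0.0140, SE 0.04), and its groups were far apart relative to their spread.

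Of the 3 bHLH genes 2 fell and 1 did not pass. AHR, the ligand-activated aryl hydrocarbon receptor (chromosome 7, 16916359 to 17346152), was at 3258, 3272 and 3534 in vehicle and 2726, 2810.4 and 2991 in extract libraries. It fell by 0.24 on the log2 scale (edgeR adjusted p = 0.0221, SE 0.05). AHR shares 29.4% of its exon bases with AC019117.2 on the same strand, so its counts depend on how reads were divided. MAX, the obligate partner of MYC, was at 2156, 2190.4 and 2204 in vehicle and 1978, 1874 and 1869 in extract libraries, a log2 fold change of -0.20 (edgeR adjusted p = 0.0249, SE 0.04). MYC itself, left out by the rule, was at -0.36 (edgeR adjusted p = 0.0322). BHLHE40 (DEC1), a clock-linked repressor, was at 1297, 1103 and 1071 in vehicle and 1434, 1675 and 1300.5 in extract libraries. Vehicle replicate 1 lay just below extract replicate 3, and the log2 fold change of 0.35 did not pass (edgeR adjusted p = 0.0650, SE 0.10). It passed on each of the 3 other scales.

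All 5 homeobox genes passed, 2 higher and 3 lower, where 899 of the 1099 listed genes passed. PBX4, a TALE homeodomain protein of the kind that binds DNA with HOX factors, had the largest fold of all members and the lowest normalised counts. Its normalised counts were 79.8, 63.2 and 81.3 in vehicle and 53.3, 34.4 and 36.4 in extract libraries. The groups did not overlap but were wide, and the log2 fold change was -0.85 (edgeR adjusted p = 0.0394, SE 0.21), a call kept in 1 of the 6 fits that left out a library. PBX4 was not alone in this, as calls of ZBED6, IRF2, SIX5, CBFA2T2 and others were also kept in 1. Those of TADA2A, MAX, FOSL1 and TGIF2, among others, were kept in 2. MSX2, a repressor in BMP-dependent development, was at 1408, 1433 and 1464 in vehicle and 1233, 1134 and 1159 in extract libraries and fell by 0.29 (edgeR adjusted p = 0.0101, SE 0.05). TGIF2, which restrains TGF-beta signalling, was at 947, 947 and 989 in vehicle and 850.3, 757 and 784 in extract libraries and fell by 0.27. SIX5 was at 353, 352 and 363 in vehicle and 457, 453 and 415 in extract libraries and rose by 0.31 (edgeR adjusted p = 0.0323, SE 0.07). Of its exon bases 56.8% are shared with a transcript on the opposite strand. ZFHX3, a large protein with both homeodomains and zinc fingers, rose by 0.19.

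The nuclear receptor, STAT and IRF and forkhead groups held only higher members. NR3C2 (ENSG00000151623, chromosome 4, 148078762 to 148444698) was at 129.9, 125 and 126 normalised counts in vehicle and 178, 172 and 203 in extract libraries. All extract libraries were above the vehicle group, with a log2 fold change of 0.54 (edgeR adjusted p = 0.0199, SE 0.11), from the lowest level of any member (1.95 TPM in vehicle). NR1D2 (REV-ERB beta), a repressor in the circadian clock, rose by 0.23. IRF2, which competes with IRF1 at interferon-responsive promoters, was at 264, 239.8 and 269.8 in vehicle and 313, 335 and 348 in extract libraries and rose by 0.37 (edgeR adjusted p = 0.0341, SE 0.09). STAT6, the mediator of interleukin-4 signals, rose by 0.23. STAT2 and IRF9, interferon signalling factors left out by the rule, were at 0.47 and 0.20, the second of which did not pass. FOXP1 rose by 0.24, and FOXC1 was at 0.17 and did not pass.

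Families with a single listed gene were E2F and DP, HMG box and SOX, and MADS box. TFDP2 was at 456, 471 and 374 in vehicle and 588, 571 and 605 in extract libraries, a log2 fold change of 0.44 (edgeR adjusted p = 0.0189, SE 0.09). Vehicle replicate 3 was the low one of its group. SOX12 was at 0.26 and SRF, the factor that links actin and MAP kinase signals to transcription, at -0.20. Neither passed (edgeR adjusted p = 0.0566 and 0.0635).

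The remaining 13 members belong to none of these families, and several are better known as cofactors or structural proteins than as DNA-binding factors. Of these, 5 rose, 3 fell and 5 did not pass. ZBED6, a repressor derived from a DNA transposon, was at 431, 374 and 502 in vehicle and 579.6, 547 and 604 in extract libraries, a log2 fold change of 0.41 (edgeR adjusted p = 0.0403, SE 0.10). Since 96.0% of its exon bases are shared with ZC3H11A on the same strand, its counts depend on how reads were divided between the pair. TADA2A, an adaptor of histone acetyltransferase complexes, was at 335, 304 and 295 in vehicle and 414, 431 and 367 in extract libraries and rose by 0.38 (edgeR adjusted p = 0.0341, SE 0.09). SLC2A4RG, a regulator of the glucose transporter gene SLC2A4, was at 831, 748 and 775 in vehicle and 914, 987 and 992 in extract libraries and rose by 0.30. CBFA2T2, a corepressor, was at 974, 950.2 and 990.2 in vehicle and 1172, 1099 and 1140.1 in extract libraries and rose by 0.23. ARID1B, a subunit of the SWI/SNF remodelling complex, rose by 0.18. The nuclear body protein SP100 and the SMAD corepressors SKIL and SKI were at 0.24, 0.22 and 0.18 and did not pass. AHCTF1, a nucleoporin also called ELYS, fell by 0.16, LRRFIP1 by 0.20 and NFXL1 by 0.28. The prefoldin subunit gene PFDN1 and the kinetochore gene CENPT were at -0.24 and -0.32 and did not pass. Without these 13 members, 15 of 40 were called higher (37.5%) and 19 lower (47.5%), against 28.9% and 52.9% of listed genes.

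**Figure D4:**
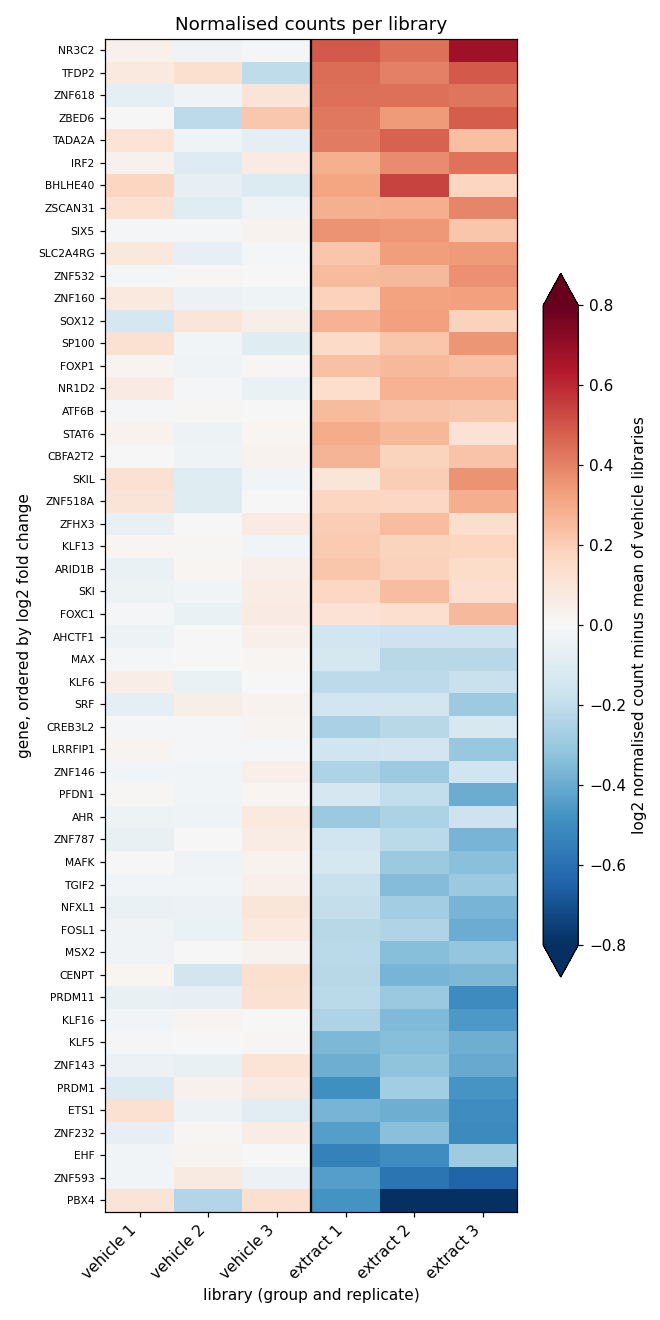
Log2 normalised count of each of 52 of the 53 members in each library (columns) minus the mean of its 3 vehicle libraries, with red for higher and blue for lower and rows ordered by log2 fold change. The vehicle columns are paler than the extract columns, and PBX4 is the deepest blue in extract replicates 2 and 3.

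Across libraries, the members moved with similar size in each extract library when higher and with less even size when lower. The median log2 ratio of the 27 higher members to their vehicle mean was 0.25, 0.28 and 0.28 in extract replicates 1 to 3. For the 26 lower members it was -0.22, -0.29 and -0.37. In the vehicle libraries these medians lay between -0.03 and 0.03. Since these members had been chosen on this comparison, the sizes are descriptions only.

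Compared per length, members spanned levels from 2.36 TPM (NR3C2) to 267 TPM (KLF5), with a median of 27.99 TPM against 53.7 TPM over all listed genes. High levels were also seen for ZNF146 at 265 TPM and ZSCAN31 at 227 TPM. Among members with a mean of more than 100 TPM, higher and lower ones were both present, with ZSCAN31 and FOXC1 among the higher and KLF5, ZNF146, PFDN1, KLF6, MAX and LRRFIP1 among the lower.

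**Figure D5:**
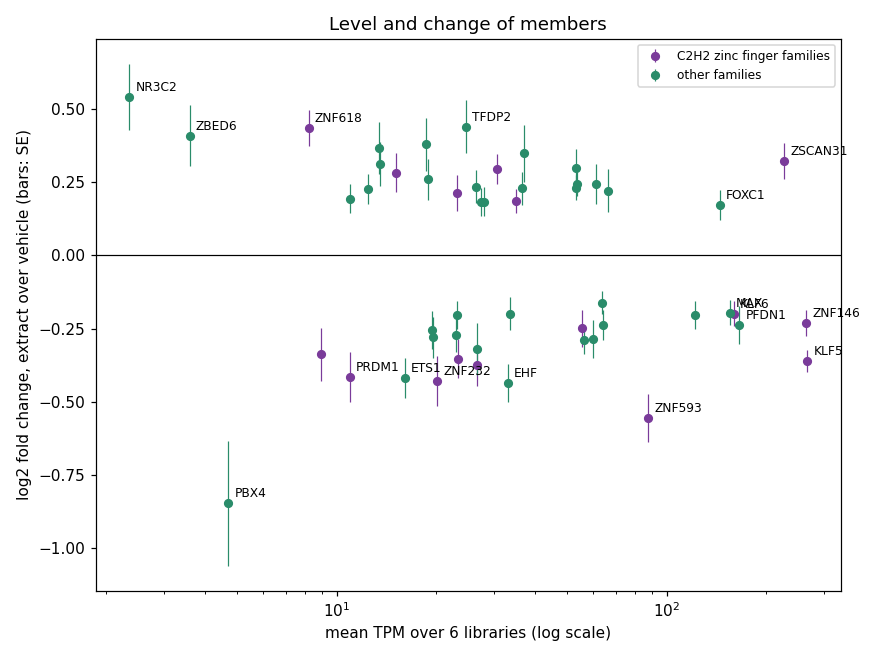
Log2 fold change (vertical axis, extract over vehicle, bars are SE) against mean level over the 6 libraries (horizontal axis, TPM, log scale) for 52 of the 53 members, with C2H2 zinc finger families in purple and all others in green. The members beyond 0.4 on the log2 scale in either direction all have means below 100 TPM, and PBX4 has the widest SE.

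The annotation in the table also marks whether a factor acts as an activator or a repressor at RNA polymerase II promoters, which was not used to choose the members. Of 14 members with the activator term 4 were called higher and 7 lower, with a median log2 fold change of -0.20. Of 10 with the repressor term 2 were called higher and 6 lower, with a median also of -0.20. Of the 29 with neither, 14 were called higher and 9 lower, with a median of 0.21. Over all listed genes 28.9% were called higher and 52.9% lower, with a median of -0.22. The difference between these groups of members was not tested, and since no member lay between -0.16 and 0.17, each median falls on the side that holds more members.

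Promoter sequences were taken from RefSeq (GRCh38.p14) for the 44 members with an entry, and the 250 bases before each start were searched on both strands for 12 motifs, most of them read by the listed families. Members without an entry included AHCTF1, ETS1, FOSL1, IRF2, MAFK, SIX5, SKI and ZNF618. The cyclic AMP response element TGACGTCA, read by bZIP dimers of the CREB and ATF kind, was present in 4 of 44 (9.09%), against 2.69% of listed genes and 1.77% of all promoters. Of the 12 motifs it stood furthest above its share in listed genes, and the difference was not tested. These 4 promoters belong to ZNF593, ZNF143 and CREB3L2, which fell, and to SKIL, which stood higher and did not pass. They are printed here as 60 bases of the gene's own strand, with the element in capitals, so that its surroundings can be compared. A match is a description of letters and not of binding. For 36 of the 44, the bases shortly after the RefSeq start were found within a GENCODE transcript of the gene. Whether the starts coincide was not tested. The RefSeq start can lie inside the GENCODE gene span, as for ZNF143, whose span begins at 9460319.
SKIL (chr3:170357635-170357694, plus strand): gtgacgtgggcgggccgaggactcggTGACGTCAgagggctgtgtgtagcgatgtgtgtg
CREB3L2 (chr7:138002232-138002291, minus strand): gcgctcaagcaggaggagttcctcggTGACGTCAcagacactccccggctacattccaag
ZNF143 (chr11:9460822-9460881, plus strand): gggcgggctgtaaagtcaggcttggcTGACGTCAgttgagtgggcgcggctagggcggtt
ZNF593 (chr1:26169820-26169879, plus strand): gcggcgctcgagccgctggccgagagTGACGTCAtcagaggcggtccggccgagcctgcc

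The other motifs are given as the share of member promoters, then of listed genes and then of all promoters. The GC box GGGCGG of SP and KLF factors was in 56.8%, 64.2% and 42.3%. The KLF motif CCACCC was in 36.4%, 34.9% and 30.4%, and the CCAAT box (CCAAT) in 38.6%, 32.8% and 33.0%. The aryl hydrocarbon receptor core GCGTG was in 38.6%, 45.5% and 31.9%, and the E-box CACGTG in 11.4%, 9.89% and 6.49%. The ETS motif CCGGAAG was in 6.82%, 16.5% and 8.82%, and the AP-1 motif TGANTCA in 4.55%, 4.64% and 6.60%. Matches to GAAANNGAA, the core of the interferon-stimulated response element, were found in 0 of 44 member promoters against 7.08% of listed genes, with IRF2 among those without an entry. The STAT motif TTCNNNGAA was in 2.27%, 4.88% and 6.78%, and the ZNF143 core ACTACAANT in 2.27%, 2.08% and 1.44%. The CArG box, which SRF reads, was in 2.27%, 2.69% and 1.14%, and the 1 member promoter was that of SRF, with both copies in capitals here.
SRF (chr6:43171209-43171268, plus strand): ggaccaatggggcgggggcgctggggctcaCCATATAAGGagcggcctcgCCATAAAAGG
EHF, the strongest decrease of the ETS genes, has 3 matches to the KLF motif in its 250 bases. The 1 nearest the start is shown in capitals as GGGTGG, its reverse complement. The RefSeq start used for EHF lies inside its GENCODE gene span, which begins at 34621093.
EHF (chr11:34624173-34624232, plus strand): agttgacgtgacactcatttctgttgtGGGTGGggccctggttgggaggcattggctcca

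Partner proteins of transcription factors were counted from lists of their complexes. Of 32 Mediator genes 2 were listed, CDK19 at 0.28 and MED15 at -0.27, and neither passed (edgeR adjusted p = 0.101 and 0.172). Of 32 coactivators and acetyltransferases 3 were listed, of which PSIP1 and JMY rose by 0.19 each and PPRC1 fell by 0.34. Of 47 corepressors and deacetylases 4 were listed, and the 1 that passed was the histone chaperone RBBP4, which fell by 0.19. Of 27 SWI/SNF subunits 3 were listed and all rose, SMARCA2 by 0.27, BCL7C by 0.34 and ARID1B by 0.18. Of 45 general factors and subunits of RNA polymerase II 2 were listed, of which GTF2A2 fell by 0.32 and POLR2I at -0.30 did not pass. Of 19 genes of the KRAB corepressor and H3K9 methylation, and of 27 Polycomb genes, 0 were listed. For comparison, 9.74% of all tested genes were listed, and these shares ran from 0 to 11.1% of each list. The lists count every gene, whether or not the authors tested it, so their shares may be low beside that value.

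Of the 13 factor genes left out by name 3 were called higher and 9 lower, with log2 fold changes from -1.45 (ID3) to 0.58 (KLF2). Of the 6 left out for their other annotation 1 was called higher and 4 lower, from -0.31 (PA2G4) to 0.25 (HBP1). Over all listed genes 28.9% were called higher and 52.9% lower.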

How the data were processed

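The authors deposited 1 table with estimated counts and TPM per library, gene lengths, and their own comparison (fold ratio, log2 value, p-value, adjusted p-value), per the file headers. The table's name credits that comparison to DESeq2. The submitters' processing notes give GRCh38.p13 as the build. Aligner, counting program and use of strand: not given in the sources used here. A total of 11289 tested genes was derived from the relation of p-values to adjusted p-values (largest relative error 0.00445). The deposited log2 values are vehicle over extract and were turned round: TPM ratios had the opposite sign in 1091 of 1099 genes.

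Estimated counts, not whole in 31.8% to 35.9% of values, were rounded. Listed genes summed to 3084338 to 4640117 per library, which is not the depth. Library depth is unknown. Size factors were fitted to the authors' fold changes (median absolute difference 6.45e-05 on the log2 scale), from 0.920 to 1.23. edgeR 4.0.16 (R 4.3.3, limma 3.58.1) fitted its quasi-likelihood test to all 1099 genes over 6 libraries with no covariate, with Benjamini-Hochberg adjustment over 11289 genes and a threshold of 0.05. Spread was estimated from selected genes, so p-values may be too small. The fit was also run on simulated counts. Those genes were not selected on the comparison, so that run does not address this limit. SE is the log2 fold change over the root of F. DESeq2 (1.42.0), limma-voom, other scales, a filter, a replicate block and leaving out each library were alternatives.

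Named genes were, among members with at least 2 TPM in either group, the 8 highest and 8 lowest called with groups apart and the 2 smallest p-values per family of 3 or more, and up to 3 per cofactor list. Other members are given more briefly, and 1 member is counted but not reported here by itself or drawn. The members, families and lists were chosen with earlier results of these data known. Coordinates are from GENCODE release 29.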

Additional observations from a re-analysis of the deposited data

How the results depend on the processing

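The counts of called members (20 higher and 22 lower, of which 5 and 9 were C2H2 zinc finger genes and 15 and 13 others) stayed within 1.5 times with DESeq2, limma-voom and the filter on low counts, which removed 0 genes. Rescaling over listed genes, by TMM or by DESeq2's factors, gave 2 lower calls in all, 2 among C2H2 genes and 0 among others. A TPM-derived scale gave 5, 3 and 2. Over all listed genes, lower calls on these 3 scales numbered 87, 86 and 214, in place of 581. Leaving out each library in turn gave 2 to 17 higher and 4 to 23 lower calls, with 1 to 6 and 2 to 10 among C2H2 genes and 1 to 13 and 2 to 13 among others. Over all listed genes these fits gave 50 to 287 higher and 128 to 570 lower calls. With the replicate number as a block, 4 members were called higher and 7 lower, beside 90 and 232 listed genes. Of these members 3 and 4 were C2H2 genes and 1 and 3 others. Deviations of same-numbered libraries correlated at -0.23, -0.01 and -0.03, and those of differently numbered libraries at -0.21 to 0.24. With 3 libraries per group and genes selected on the comparison, these values cannot show whether the replicate numbers pair the libraries. No sign of a named gene changed in any setting. Of the 26 named genes, 20 lost their call when vehicle replicate 2 was dropped, 19 when vehicle replicate 3 was, 18 when extract replicate 2 was, and 17 under the block. The cause was not tested. Library depth is unknown, so the precision that counting allows could not be given.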
